A study of Mus musculus with 45 samples.

Results

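The 41 ribosome biogenesis and nucleolar genes described here were chosen by symbol from the deposited table of 55450 genes. They encode RNA polymerase I and its partners (7 genes), nucleolar chaperones and regulators (7), the box C/D (4) and box H/ACA (4) small nucleolar ribonucleoproteins, and assembly factors of the small (5) and the large (14) ribosomal subunit. Each gene was found in the table and passed the low-count filter in every comparison. RNA-sequencing covered 45 samples of sorted lymphocytes, in 8 groups, from the draining popliteal lymph nodes of mice that had received OVA (50 µg) and LPS (5 µg) in 20 µl of an IFA emulsion in the footpad. GC B cells (B220+ GL7+ Fas+) and non-GC B cells (B220+ GL7- Fas-) were sorted on day 9, and TFH cells (TCRβ+ CD4+ PD1+ CXCR5+) and non-TFH cells (TCRβ+ CD4+ PD1- CXCR5-) on day 6. Mice were WT or S1PR4-/- littermates of both sexes, 8 to 12 weeks old. The S1PR4-/- mice carried the germline allele of the strain B6.129P2-S1pr4tm1Dgen/J, backcrossed to C57/BL6, so all their cells lack the receptor and not only the sorted ones. There were 6 samples per group, except for WT (5) and S1PR4-/- (4) non-GC B cells. GC B cells and TFH cells arise in the same germinal center reaction, but here B and T cells were also collected on different days, and lineage and day cannot be told apart.

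Ribosomes are built in the nucleolus. RNA polymerase I transcribes the precursor of the large ribosomal RNAs, box C/D and box H/ACA particles guide its methylation and pseudouridylation, and assembly factors fold and cleave it while ribosomal proteins join. In lymphocytes this machinery is induced early after antigen stimulation, before cells divide, and it is a classical target of the transcription factor MYC. GC B cells divide fast, and TFH cells can divide as well.

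Expected counts summed to between 2.63e+07 and 4.55e+07 per sample. The targeted gene matched the labels, since S1pr4 had between 505 and 6305 counts in WT and between 0 and 40 in S1PR4-/- samples. All 8 GC B markers (S1pr2, the receptor that keeps B cells in the germinal center, among them) rose in WT GC B cells and all 8 TFH markers (Il21, their cytokine, and Bcl6, their defining transcription factor, among them) rose in WT TFH cells. Fas in the GC B set, and Pdcd1 (PD1) and Cxcr5 in the TFH set, were sort markers, so their rise is no finding. Some libraries stood apart from the rest of their group. The sum of 6 plasma cell markers reached 17642 CPM in replicate 3 of the S1PR4-/- GC B cells, against 2036 to 8327 CPM in the other 5. Replicate 2 of the WT non-GC B cells had 22790 genes detected, and myeloid markers reached 433 CPM in replicate 6 of the S1PR4-/- TFH cells. For most comparisons that rest on these libraries, a count of called genes or a median is also given without them. Other counts, such as those of genes without overlap and the direction classes, are given with all libraries only.

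Values below are CPM, the count scaled to a common library size with TMM factors over all 45 libraries. Since RNA was taken from sorted populations in bulk, fewer cells with a high level and a lower level in every cell cannot be told apart, and since CPM are relative, a change in the total RNA of a cell is not seen. Levels were compared between groups for each gene, not between genes. "Rose" and "fell" are used for an adjusted p under 0.05 (Benjamini-Hochberg over all genes tested, edgeR's quasi-likelihood test), and "called" for genes that also changed by more than 1.5-fold.

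RefSeq's promoter table held 35 of the 41 genes. In the 250 bases before the start of these genes, the canonical E-box CACGTG (a palindrome, and a letter pattern that MYC can bind) occurred in 2 of the 35 genes, Nop2 and Rrn3. This is 5.71%, against 9.94% of the 10149 tested genes with a window. The CG E-box CACGCG, a related pattern read on both strands, went the other way. It occurred in 7 of the 35 genes (20%), against 16.1% of the tested genes. The ETS core CCGGAA, read on both strands, occurred in 13 of the 35 genes (37.1%), against 25.7% of the tested genes. These are letter matches, not measured binding, and CCGGAA can overlap itself when both strands are read. The windows of 4 genes are shown for these reasons: Gar1 rose most with Nhp2 in GC B cells, Nop56 fell in both germinal center populations, and Nop2 and Rrn3 hold the canonical E-boxes. Capitals mark the canonical E-box and the ETS core on either strand. The windows lie on GRCm38.p6, at chr3:129831397-129831646 on the minus strand (Gar1), chr2:130274162-130274411 on the plus strand (Nop56), chr6:125131633-125131882 on the plus strand (Nop2) and chr16:13780449-13780698 on the plus strand (Rrn3). All are read 5′ to 3′ along the gene.
Gar1: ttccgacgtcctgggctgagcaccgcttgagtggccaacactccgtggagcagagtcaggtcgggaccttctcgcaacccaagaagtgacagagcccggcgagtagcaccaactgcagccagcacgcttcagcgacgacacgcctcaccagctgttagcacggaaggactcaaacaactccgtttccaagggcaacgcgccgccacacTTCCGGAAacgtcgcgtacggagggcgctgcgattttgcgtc
Nop56: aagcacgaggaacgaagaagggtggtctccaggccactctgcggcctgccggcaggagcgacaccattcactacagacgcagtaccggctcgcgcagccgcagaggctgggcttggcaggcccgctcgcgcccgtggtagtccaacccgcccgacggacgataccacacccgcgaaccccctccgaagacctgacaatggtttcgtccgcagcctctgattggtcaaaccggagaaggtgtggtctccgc
Nop2: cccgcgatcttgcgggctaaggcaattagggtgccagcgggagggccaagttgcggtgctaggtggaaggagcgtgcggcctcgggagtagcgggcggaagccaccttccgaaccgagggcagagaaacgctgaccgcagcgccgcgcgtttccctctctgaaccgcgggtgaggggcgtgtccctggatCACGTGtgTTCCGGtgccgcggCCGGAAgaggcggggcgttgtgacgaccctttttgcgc
Rrn3: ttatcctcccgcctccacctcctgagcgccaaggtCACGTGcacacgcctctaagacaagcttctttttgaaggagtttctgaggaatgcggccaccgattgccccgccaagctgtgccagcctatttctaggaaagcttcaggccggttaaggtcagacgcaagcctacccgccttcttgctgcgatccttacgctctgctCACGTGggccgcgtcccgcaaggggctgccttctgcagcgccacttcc
Gar1 has 2 overlapping ETS cores, Nop2 has 2 separate ones beside an E-box 60 bases before the start, and Rrn3 has 2 E-boxes, the nearer 48 bases before the start. The Nop56 window holds neither pattern. Gar1 rose and Rrn3 did not pass the test in WT GC B cells, and Nop2 differed little, as given below. These windows were picked and do not stand for the 35 genes. The ETS core was found in a gene that rose (Nhp2) and in a gene that fell (Npm3). Ncl and Nop16 rose without it. Whether either pattern goes with the direction of change was not tested.

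The mean level of the 41 genes was highest in GC B and non-TFH cells and lowest in TFH and non-GC B cells. Averaged on the log2 CPM scale, it was 6.29 ± 0.04 (SD, n = 5) for non-GC B and 6.48 ± 0.07 (SD, n = 6) for GC B cells of WT mice, with no overlap between the samples. In WT T cells the order was the opposite, with 6.42 ± 0.08 (SD, n = 6) in non-TFH cells and 6.20 ± 0.06 (SD, n = 6) in TFH cells. In that pair the highest TFH and the lowest non-TFH sample met at 6.30, and the others did not overlap. The S1PR4-/- means were 6.17 ± 0.08 (n = 4) in non-GC B, 6.49 ± 0.11 (n = 6) in GC B, 6.52 ± 0.09 (n = 6) in non-TFH and 6.30 ± 0.16 (n = 6) in TFH cells. Samples of the neighbors in this order, GC B and non-TFH cells of both genotypes, overlapped. The S1PR4-/- TFH samples fell apart into 3 samples between 6.42 and 6.46 and 3 between 6.14 and 6.17. Together the 41 genes took between 0.397% and 0.581% of all counts.

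**Figure D1:**
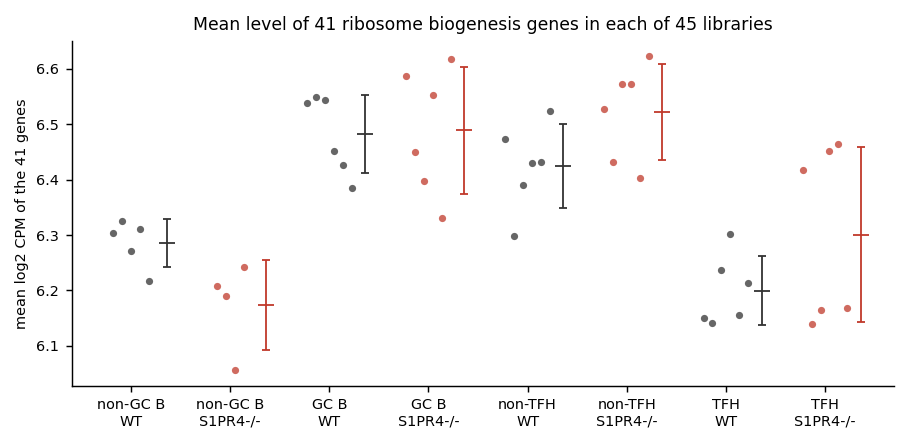
Mean log2 CPM (prior count 2) of the 41 genes in each of the 45 libraries, by population and genotype (points), with the group mean and SD (bars). WT GC B samples lie above WT non-GC B samples, while WT TFH samples lie low and S1PR4-/- TFH samples split into 3 near 6.44 and 3 near 6.16 on the log2 scale.

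The comparison of WT GC B with non-GC B cells addressed how far this machinery differs between germinal center B cells and their neighbors in the same node. The largest rises were in Gar1 and Nhp2, core proteins of the box H/ACA particles. Gar1 was at 13, 13.7, 15.3, 16.1 and 16.4 CPM in the 5 non-GC B samples and at 23.8 (lowest), 29 (median) and 35.6 CPM (highest) in the 6 GC B samples. It rose by 1.04 (standard error 0.11) on the log2 scale, or 2.06-fold (adjusted p = 4.51e-06, edgeR). Nhp2 was at 39.2, 43.7, 46.8, 47 and 48.2 CPM in non-GC B cells and at 75.5, 83.7 and 117 CPM (lowest, median, highest) in GC B cells, also a log2 rise of 1.04 (standard error 0.12). Every GC B sample lay above every non-GC B sample for both genes. On mm10, Gar1 lies at chr3:129824912-129831396 on the minus strand and Nhp2 at chr11:51619735-51623714 on the plus strand.

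Of the 41 genes, 11 were called higher in WT GC B cells (26.8%, against 24.8% of the 13324 genes tested) and 1 was called lower (2.44%, against 23.1%). The share called higher was thus close to that of all genes, and the share called lower was well under it. At the adjusted p alone, 21 rose (51.2%, against 34.3% of all genes) and 6 fell (14.6%, against 32.9%). The median log2 fold change of the 41 genes was 0.26, beside 0.00 for all genes tested, and 29 of the 41 values were above 0 (70.7%, against 50.1%). The samples of the 2 groups did not overlap for 17 genes that were higher and 5 that were lower, beside 25.4% of all genes in each direction. Without replicate 2 of the WT non-GC B cells, 11 were called higher and 0 lower.

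Of the other box H/ACA genes, Dkc1, the pseudouridine synthase of the particle, rose by 0.46 (standard error 0.08), and Nop10, its smallest core protein, differed by 0.09 (standard error 0.06), which did not pass the test. Of the box C/D genes, Fbl (fibrillarin, the RNA methyltransferase) rose by 0.49 and the core protein Nop58 by 0.58. The partner core protein Nop56 went the other way and fell by 0.38 (standard error 0.09, adjusted p = 0.00281). Rrp9, which belongs to the U3 particle, was at -0.14 (standard error 0.10) and did not pass the test.

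Among the nucleolar chaperones, Npm1 (nucleophosmin) was at 203, 214, 221, 226 and 241 CPM in the WT non-GC B samples and at 364, 398 and 427 CPM (lowest, median, highest) in GC B cells. It rose by 0.92 (standard error 0.07, adjusted p = 2.63e-07, edgeR), the smallest adjusted p among the 41 genes in this comparison. Ncl (nucleolin) rose by 0.70 (standard error 0.08), from 486 to 550 CPM in non-GC B cells up to 722 to 893 CPM in GC B cells. Neither gene had overlapping samples. Nolc1, a chaperone of small nucleolar particles, rose by 0.33 and the RNA helicase Ddx21 by 0.26 (adjusted p = 0.0401). Ddx21 did not pass the adjusted p in 9 of 18 alternatives, among them leaving out GC B replicate 1, 2, 3 or 5 or non-GC B replicate 3, 4 or 5 (adjusted p between 0.0536 and 0.0995). Gnl3 (nucleostemin) and Mybbp1a did not pass the test, at log2 fold changes of 0.12 and 0.09. Npm3, a nucleoplasmin relative, fell by 0.69 (standard error 0.28, adjusted p = 0.0402). It was a weakly expressed gene with a wide spread, at 2.32, 3.57 and 7.76 CPM (lowest, median, highest) in GC B cells against 5.98, 7.07, 7.46, 7.49 and 7.57 CPM, and it did not pass the adjusted p in 10 of 18 alternatives. Leaving out any 1 library other than GC B replicate 3 or non-GC B replicate 4 ended its call (adjusted p between 0.0517 and 0.0936).

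The RNA polymerase I genes were split. Polr1e rose by 0.76 (standard error 0.12), Polr1c, which RNA polymerase III shares, rose by 0.49, and the ribosomal DNA binding factor Ubtf rose by 0.31. The catalytic subunit Polr1b fell by 0.31 (standard error 0.10, adjusted p = 0.0132). Its partner Polr1a was at -0.20 (adjusted p = 0.0687), the initiation factor Rrn3 at -0.14 and Tcof1 (treacle) at 0.12, and these did not pass the test.

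Of the assembly factors of the large subunit, 8 of 14 rose and 1 fell, beside 34.3% and 32.9% of all genes. Mrto4, Nop16, Rrs1, Rrp1b and Nip7 were called, with log2 rises of 0.81, 0.81, 0.80, 0.72 and 0.68. Smaller rises were seen in Bop1 (0.48), its complex partner Wdr12 (0.37) and Ebna1bp2 (0.30), while Pes1, the remaining member of that complex, was at 0.06 and did not pass the test. Ftsj3 (0.20), Nop2 (0.00), Ddx18 (-0.13) and Noc3l (-0.16) did not pass it, and Noc2l fell by 0.36. Of the 5 small subunit factors, Bysl rose by 0.83 (standard error 0.13), Nop14 fell by 0.39 and Heatr1 fell by 0.29, the last not past the adjusted p in 12 of 18 alternatives. These include the fits without GC B replicate 1, 4, 5 or 6 or non-GC B replicate 1, 2, 3 or 4 (adjusted p between 0.0678 and 0.113). Wdr43 (0.11) and Rrp12 (0.06) did not pass the test.

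**Figure D2:**
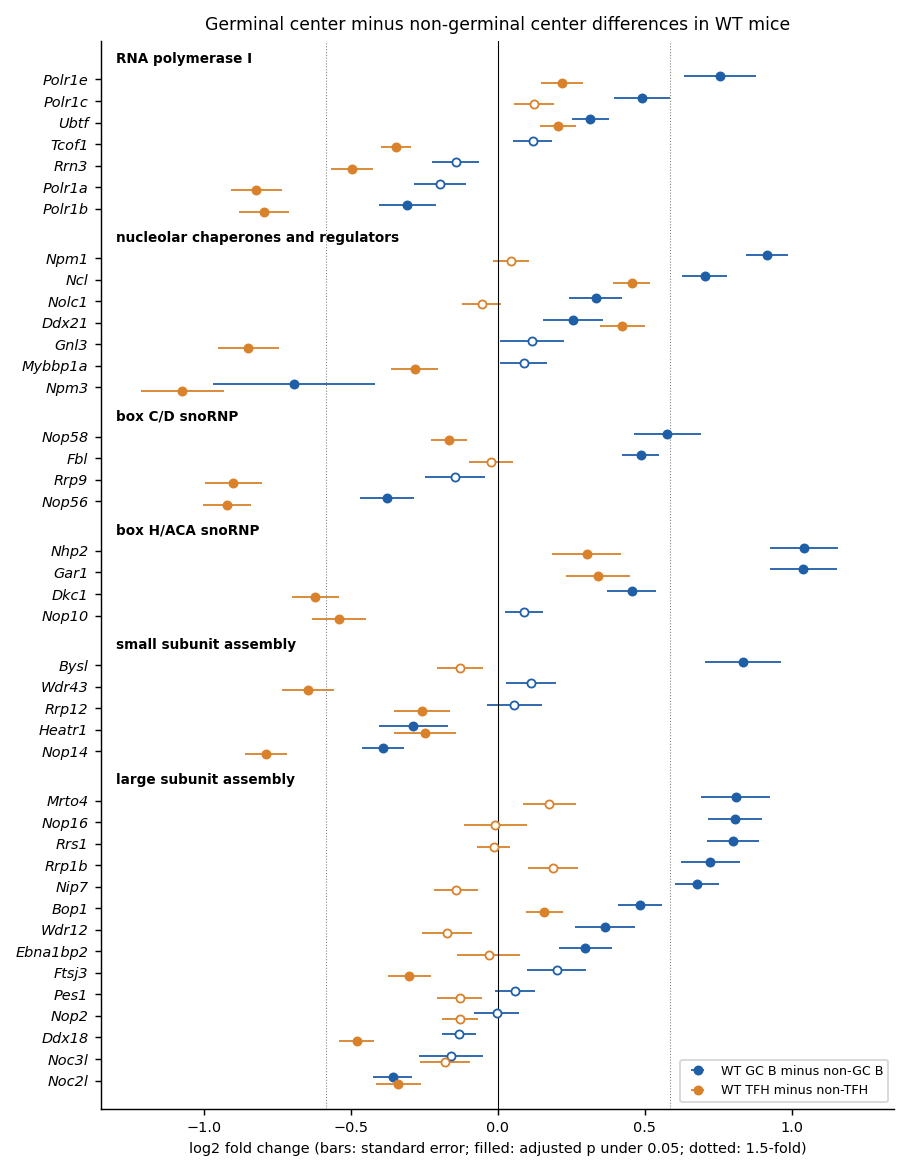
Log2 fold change of each of the 41 genes (rows, grouped by role) between WT GC B and non-GC B cells (blue) and between WT TFH and non-TFH cells (orange), with standard errors as bars. Filled points passed an adjusted p of 0.05 and dotted lines mark 1.5-fold, and most blue points lie right of the orange point of the same gene.

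The comparison of WT TFH with non-TFH cells asked the same of the CD4+ T cells, and here the genes were mostly lower. Nop56 was at 267, 293 and 351 CPM (lowest, median, highest) in the 6 non-TFH samples and at 143, 158 and 176 CPM in the 6 TFH samples. It fell by 0.92 (standard error 0.08) on the log2 scale (adjusted p = 1.55e-07, edgeR), a level 1.89-fold lower. Gnl3 was at 64.8, 77.2 and 80.2 CPM in non-TFH and at 29.1, 42.7 and 48.7 CPM in TFH cells, and fell by 0.85 (standard error 0.10). For both genes, every TFH sample lay below every non-TFH sample.

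Of the 41 genes, 0 were called higher in WT TFH cells by edgeR (against 22.8% of the 13481 genes tested), and DESeq2 and limma voom also called 0 higher. Those called lower were 9 (22%, against 20.4% of all genes), a share close to the background. At the adjusted p alone, 7 rose (17.1%, against 34.8%) and 19 fell (46.3%, against 33.9%), and 27 had an unadjusted p under 0.05 in either direction (65.9%, against 71.2%). The median log2 fold change was -0.17, beside 0.00 for all genes tested. The samples did not overlap for 13 genes that were lower, beside 23.1% of all genes, and for 2 that were higher, beside 25.5%.

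Those 2 genes were Ncl and Ddx21. Ncl was at 436, 484 and 547 CPM in non-TFH cells and at 613, 679 and 690 CPM in TFH cells, a rise of 0.46 (standard error 0.06, adjusted p = 1.20e-05). Ddx21 rose by 0.42 (standard error 0.08), from 77.5, 90.8 and 109 CPM to 116, 124 and 135 CPM. Npm1 was at 0.04 and Nolc1 at -0.05, and neither passed the test. Mybbp1a fell by 0.28. Npm3 fell by 1.07 (standard error 0.14), the largest difference among the 41 genes, with 10.7, 12.9 and 15.5 CPM in non-TFH and 4.63, 6.53 and 7.46 CPM in TFH cells.

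Within the box H/ACA particle the genes diverged. Gar1 rose by 0.34 and Nhp2 by 0.30, whereas Dkc1 fell by 0.62 (standard error 0.08) and Nop10 by 0.54 (standard error 0.09). Of the box C/D genes, Rrp9 fell by 0.90 (standard error 0.10) and Nop58 by 0.17, and Fbl was at -0.02. The rise of Nhp2 ended without TFH replicate 4 or 6 or non-TFH replicate 2, 3 or 5 (adjusted p between 0.0511 and 0.0789), and the fall of Nop58 ended without TFH replicate 2 or 5 (adjusted p of 0.0697 and 0.0585).

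The catalytic subunits of RNA polymerase I fell together. Polr1a fell by 0.82 (standard error 0.09), from 51.1, 58.6 and 71.4 CPM in non-TFH cells to 30.4, 33.1 and 39.8 CPM in TFH cells, and Polr1b fell by 0.80 (standard error 0.08). Rrn3 fell by 0.50 and Tcof1 by 0.35. Polr1e (0.22) and Ubtf (0.21) rose, and Polr1c, at 0.12, did not pass the test.

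All 5 small subunit factors had negative values. Nop14 fell by 0.79, Wdr43 by 0.65, Rrp12 by 0.26 and Heatr1 by 0.25, the last not past the adjusted p in 12 of 19 alternatives, and Bysl was at -0.13. The large subunit factors moved least. Ddx18 fell by 0.48, Noc2l by 0.34 and Ftsj3 by 0.30, and Bop1 rose by 0.16, but did not pass the adjusted p in 8 of 19 alternatives. The other 10 did not pass the test, with values from -0.18 (Noc3l) to 0.19 (Rrp1b). Some of the smallest changes lay near the threshold, and leaving out any 1 of several libraries ended them. Bop1 did not pass without TFH replicate 1 or 4 or non-TFH replicate 2, 3, 4 or 5 (adjusted p between 0.0529 and 0.0848), Rrp12 without TFH replicate 1, 2 or 3 or non-TFH replicate 6 (between 0.0522 and 0.0598), and Heatr1 without TFH replicate 1, 2, 4, 5 or 6 or non-TFH replicate 1, 3 or 5 (between 0.0522 and 0.114).

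Markers of other cells moved with these populations. The sum of 8 B cell markers was between 161 and 425 CPM in WT TFH samples and between 11.1 and 45.5 CPM in non-TFH samples, beside 12810 to 13616 CPM in WT non-GC B cells, and all 8 rose in TFH cells. The sum of 6 plasma cell markers was between 3989 and 8760 CPM in WT GC B samples and between 511 and 854 CPM in non-GC B samples, and 5 of the 6 rose. Their part in the differences above was not tested.

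**Figure D3:**
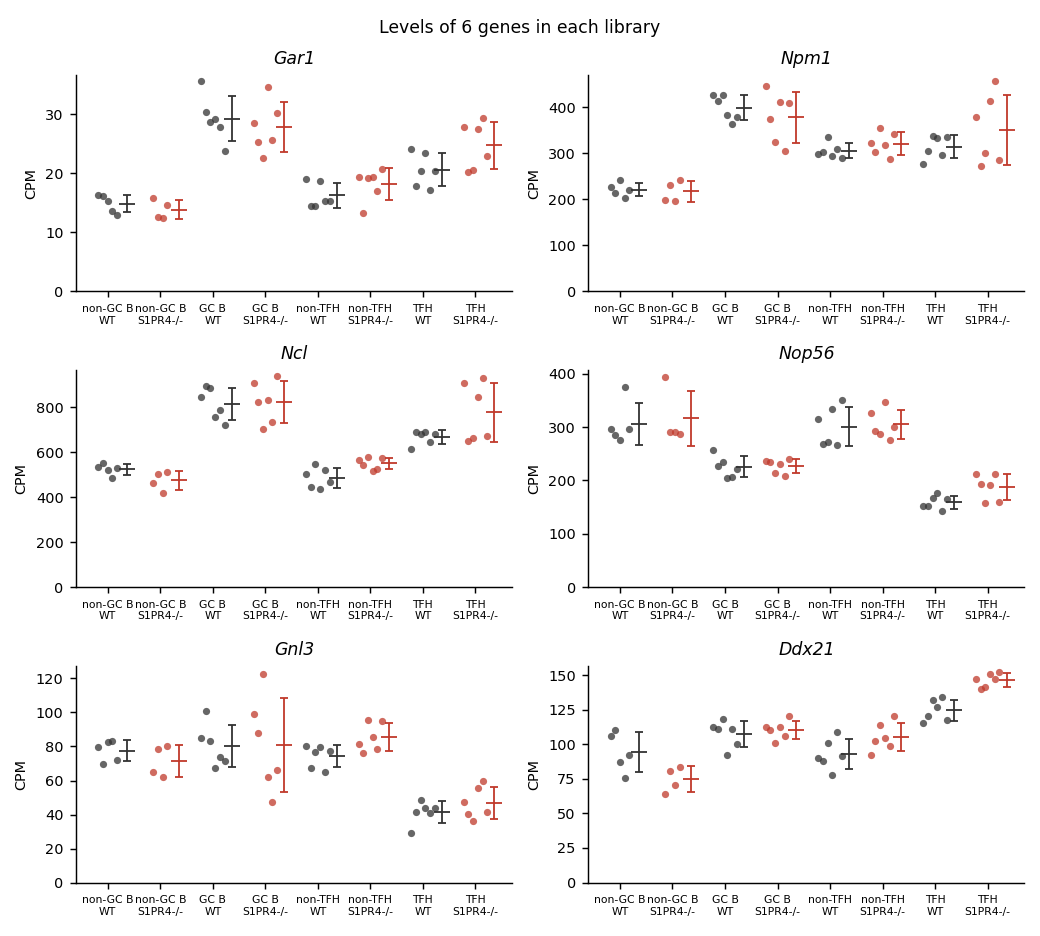
CPM of 6 of the genes in each library (points, WT in black and S1PR4-/- in red), with group mean and SD (bars), on linear axes from 0. Gar1 and Npm1 stand highest in GC B cells, Nop56 is low in both germinal center populations, Ncl is higher in both, Gnl3 is lowest in TFH cells, and Ddx21 is highest in S1PR4-/- TFH cells.

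The B and T cell differences were then set against each other in a single test, the WT GC B minus non-GC B difference less the TFH minus non-TFH difference. Most of the genes rose more, or fell less, in B cells. Of the 41, 30 passed an adjusted p of 0.05 in the direction of B cells (against 20.3% of the 15101 genes tested) and 0 in the direction of T cells (against 21.4%), and DESeq2 and limma voom gave 30 and 0 as well. The median difference was 0.44 on the log2 scale, beside -0.03 for all genes tested. It was largest for Dkc1, at 1.01 (standard error 0.12, adjusted p = 2.92e-07, edgeR), which rose in GC B and fell in TFH cells. Gnl3 (0.90), Bysl (0.90) and Npm1 (0.81) followed. All 4 box C/D and all 4 box H/ACA genes passed, as did 6 of 7 RNA polymerase I genes, and Ubtf (0.05, adjusted p = 0.717) was the exception. Ncl (0.18, adjusted p = 0.13) and Ddx21 (-0.23, adjusted p = 0.149) did not pass. Without replicate 2 of the WT non-GC B cells, 29 passed.

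By direction, 7 genes rose in both WT germinal center populations (Ncl, Gar1, Nhp2, Polr1e, Ubtf, Bop1 and Ddx21) and 6 fell in both (Npm3, Nop56, Nop14, Polr1b, Noc2l and Heatr1), which is 17.1% and 14.6%, against 21.8% and 21.6% of the 12242 genes tested in both comparisons. Another 2, Nop58 and Dkc1, rose in GC B and fell in TFH cells (4.88%, against 3.31%), and 0 went the opposite way (against 4.10%). A further 12 rose in GC B cells without passing the test in T cells (29.3%, against 8.81%), 11 fell in TFH cells without passing it in B cells (26.8%, against 9.59%), and Nop2, Pes1 and Noc3l passed in neither. Although the level of the shift differed, the order of the genes was alike. Across the 41 genes, Pearson's r between the 2 sets of log2 fold changes was 0.76, beside 0.60 over all genes tested in both, and Spearman's rho was 0.78. This is a description over genes, which are not independent replicates and share their length and composition in both comparisons.

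**Figure D4:**
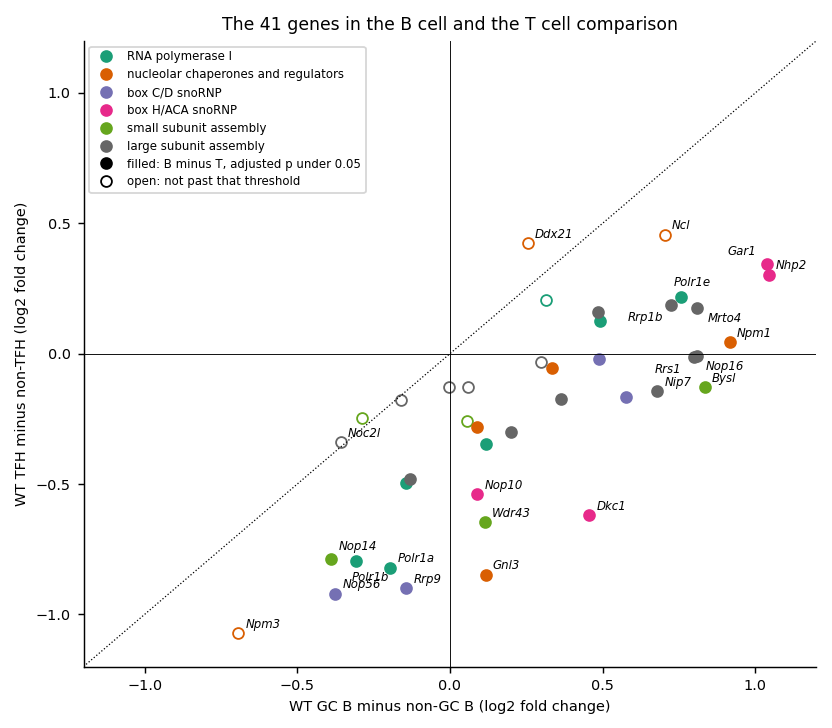
Log2 fold change between WT TFH and non-TFH cells (vertical) against that between WT GC B and non-GC B cells (horizontal) for the 41 genes, colored by role, with a dotted line of equality. Filled points are the 30 genes whose B minus T difference passed an adjusted p of 0.05, and all of them lie below the line.

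The same population differences were measured in S1PR4-/- mice, in separate samples. In S1PR4-/- GC B cells, 14 of the 41 genes were called higher (34.1%, against 25.3% of the 13484 genes tested) and 0 lower by edgeR, DESeq2 and limma voom (against 22.9%), with 32 genes at an unadjusted p under 0.05 (78%, against 67.9%). The median log2 fold change was 0.39, beside 0.03 for all genes. Without replicate 3 of the S1PR4-/- GC B cells, the library rich in plasma cell markers, 16 were called higher. At the adjusted p alone 25 rose (against 33.6%), among them all 21 genes that rose in WT, and 4 fell (against 31.0%). The samples did not overlap for 20 genes that were higher, beside 26.4% of all genes, and for 4 that were lower, beside 26.7%. The 4 additional rises were Rrp12 (0.58), Ftsj3 (0.39), Tcof1 (0.39) and Mybbp1a (0.29), whose WT values were 0.06, 0.20, 0.12 and 0.09. The rise of Mybbp1a ended without S1PR4-/- GC B replicate 1, 2, 4 or 6 or non-GC B replicate 1, 2 or 3 (adjusted p between 0.0518 and 0.129). Nop56, Nop14 and Noc2l fell in both genotypes. Rrn3 fell past the adjusted p in S1PR4-/- mice only. This fall ended without S1PR4-/- GC B replicate 2 or 3 or non-GC B replicate 3 or 4 (adjusted p between 0.0705 and 0.082, edgeR). Npm3, Polr1b and Heatr1, which fell in WT, had values of -0.27, -0.17 and 0.06 in S1PR4-/- mice and did not pass the test there.

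In S1PR4-/- TFH cells, 0 of the 41 genes were called higher (against 22.3% of the 13390 genes tested) and 7 lower (17.1%, against 21.1%), with 0 called higher by DESeq2 and limma voom too and 24 at an unadjusted p under 0.05 (58.5%, against 73.0%). The count was also 7 without replicate 6 of the S1PR4-/- TFH cells, and the median log2 fold change was -0.18, beside 0.01 for all genes. At the adjusted p alone, 19 fell (against 34.6%), of which 17 had fallen in WT, and 5 rose (against 36.1%), all of which had risen in WT. Npm3 fell by 1.67 (standard error 0.26) against 1.07 in WT, Nop56 by 0.69 against 0.92, and Dkc1 by 0.30 against 0.62. Polr1a fell by 0.85 and Gnl3 by 0.85, close to their WT values of 0.82 and 0.85. The sign was the same in both genotypes for 38 of 41 genes in B cells and for 38 of 41 in T cells (92.7% in each, against 92.1% and 90.9% of all genes). Pearson's r over the 41 genes was 0.93 in B cells and 0.94 in T cells, beside 0.94 and 0.96 over all genes, again as a description. In S1PR4-/- mice 32 of the 41 values were above 0 in B cells (against 51.4% of all genes) and 14 of 41 in T cells (against 50.4%).

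Whether the loss of S1PR4 changed these differences was tested by the interaction of genotype and population. In T cells, 0 of the 41 genes passed (against 0.00% of the 14401 genes tested in the higher and 0.0139% in the lower direction), and in B cells 0 passed (against 0.00% of 14490 genes in each direction). DESeq2 and limma voom gave 0 as well. At an unadjusted p under 0.05 there was 1 gene in T cells (2.44%, against 9.20% of all genes) and there were 6 in B cells (14.6%, against 4.58%). The T cell gene was Dkc1 (0.30, standard error 0.12, adjusted p = 0.453), ahead of Npm3 (-0.61, adjusted p = 0.546) and Wdr12 (0.21, adjusted p = 0.595). In B cells the smallest p-values belonged to Rrp12 (0.53, standard error 0.15, adjusted p = 0.691), Polr1a (0.42, adjusted p = 0.848) and Ddx21 (0.37, adjusted p = 0.993).

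Genotypes were then compared within each population. In TFH cells, 0 of the 41 genes were called by edgeR, DESeq2 or limma voom (against 0.0963% of the 13495 genes tested higher and 0.400% lower). At the adjusted p alone 1 rose, against 0.548% of all genes, and 0 fell, against 0.860%. It was Ddx21, at 116, 124 and 135 CPM (lowest, median, highest) in WT and at 140, 147 and 153 CPM in S1PR4-/- TFH cells. The samples did not overlap, as for 0.882% of all genes in this direction, and the rise was 0.23 (standard error 0.05, adjusted p = 0.0447, edgeR). It did not pass the adjusted p in 13 of 19 alternatives. Over all 19, adjusted p-values lay between 0.000697 and 0.142 and log2 values between 0.21 and 0.25. Of the libraries, leaving out any 1 of the 6 WT TFH samples, or replicate 1, 4, 5 or 6 of the S1PR4-/- TFH samples, gave adjusted p-values of 0.0506 to 0.0984. Ddx21 lies on chromosome 10 (62580251-62602281 on mm10), as does the targeted gene S1pr4. The part of strain sequence carried along with the targeted allele was not tested. Dkc1 (0.33, adjusted p = 0.0692) and Ftsj3 (0.26, adjusted p = 0.0823) came next and did not pass.

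Most values in TFH cells were small and positive. The log2 fold change was above 0 for 36 of 41 genes (87.8%, against 49.4% of all genes), with a median of 0.11, and 12 genes had an unadjusted p under 0.05 (29.3%, against 19.2%). The 3 samples of S1PR4-/- TFH cells with the high mean of the 41 genes, replicates 1, 4 and 5, also had the 3 highest sums over 24 DNA replication and mitosis genes in that group, at 8907, 9783 and 9472 CPM against 7217 to 7959 CPM in the other 3 and 5774 to 7921 CPM in WT TFH cells. The split was seen in single genes. Ncl was at 906, 843 and 930 CPM in replicates 1, 4 and 5 and at 648, 662 and 670 CPM in the other 3, and Npm1 was at 378, 412 and 458 CPM against 272, 301 and 286 CPM. The share of mitochondrial reads was lower in S1PR4-/- TFH cells (0.354% ± 0.0716, SD, n = 6) than in WT (0.495% ± 0.0536, n = 6). The part of either in the values above was not tested. Without replicate 6, which carried the myeloid markers, the median was 0.14 and 0 genes were called.

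In non-TFH cells, 0 genes were called by edgeR (against 0.0455% of 13197 genes higher and 0.0682% lower) or passed the adjusted p (against 0.0758% and 0.159%), and DESeq2 and limma voom called 0. The value was above 0 for 33 of 41 genes (80.5%, against 51.2%), the median was 0.10, and 13 had an unadjusted p under 0.05 (31.7%, against 11.3%). The smallest adjusted p was 0.179, for Bop1 (0.19, standard error 0.05), followed by Ncl (0.18, adjusted p = 0.279) and Wdr12 (-0.20, adjusted p = 0.295).

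In GC B cells the values scattered around 0. No gene passed, with 0 called by any of the 3 tools (against 0.0153% of 13070 genes higher and 0.0459% lower), a median of 0.01 and 1 gene at an unadjusted p under 0.05 (2.44%, against 4.13%). The smallest p-values were those of Polr1a (0.18), Tcof1 (0.13) and Polr1c (-0.14), all with an adjusted p of 0.985. Without replicate 3 of the S1PR4-/- GC B cells the median was 0.02.

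In non-GC B cells the values leaned the other way, with 8 of 41 genes above 0 (19.5%, against 48.2%), a median of -0.10 and 6 genes at an unadjusted p under 0.05 (14.6%, against 4.55%). Here too 0 genes were called by edgeR, DESeq2 or limma voom (against 0.0153% of 13038 genes higher and 0.0383% lower). Rrp12 was at 46.7, 51.2, 54.8, 58.6 and 67.1 CPM in WT and at 37.4, 38.1, 43.5 and 45.7 CPM in S1PR4-/- samples. These did not overlap, as was also the case for Bop1 and Nolc1 (0.867% of all genes did not overlap in this direction), but the log2 fold change of -0.43 (standard error 0.11) had an adjusted p of 0.944. Bop1 (-0.24) and Nolc1 (-0.22) followed, with an adjusted p of 0.981. Without replicate 2 of the WT samples the median was -0.11.

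**Figure D5:**
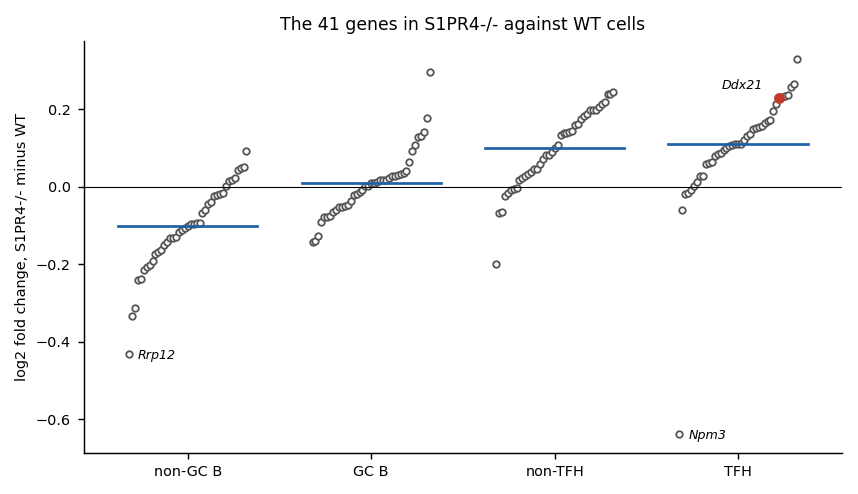
Log2 fold change between S1PR4-/- and WT cells for the 41 genes (points, sorted within each population), with the median as a blue line. Medians lie at -0.10, 0.01, 0.10 and 0.11 in non-GC B, GC B, non-TFH and TFH cells, and Ddx21 in TFH cells (red) is the 1 gene past an adjusted p of 0.05.

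Between lineages, where the day of collection differs as well, WT GC B cells were set against WT TFH cells. Of the 41 genes, 7 were called higher in GC B cells (against 20.1% of 13719 genes) and 1 lower (against 24.2%). At the adjusted p alone, 30 were higher (73.2%, against 32.3%) and 4 lower (9.76%, against 35.4%). Rrs1 (1.00, standard error 0.06, adjusted p = 1.96e-09), Nip7 (0.80), Dkc1 (0.68), Nop16 (0.75), Mybbp1a (0.72) and Tcof1 (0.43) had the smallest p-values, and Rrp1b (-0.67) was called lower. In non-GC B against non-TFH cells, 0 were called higher by edgeR, DESeq2 and limma voom (against 19.7% of 13669 genes) and 3 lower (against 19.1%), and 17 had an unadjusted p under 0.05 (41.5%, against 61.5%). Those 3 were Rrp1b (-1.09, standard error 0.09), Wdr12 (-0.88) and Npm3 (-0.81). Npm1 (-0.40), Mybbp1a (0.47) and Pes1 (0.43) followed by their p-values, under 1.5-fold. The median of the 41 genes was 0.32 between the germinal center populations and -0.01 between the others.

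Other genes of the pathway were counted from lists chosen beside the 41. Of 127 further ribosome biogenesis genes tested, 51 rose and 25 fell in WT GC B cells (median 0.08), beside 34.3% and 32.9% of all genes. In WT TFH cells 20 rose and 70 fell (median -0.22), beside 34.8% and 33.9%. The difference between B and T passed the test in the direction of B cells for 64 of them and in the direction of T cells for 7 (median 0.27). The shares of all genes were 20.3% and 21.4%. Of the 82 cytosolic ribosomal protein genes, 74 rose and 1 fell in GC B cells (median 0.47), beside 34.3% and 32.9% of all genes. In TFH cells 18 rose and 41 fell (median -0.15), beside 34.8% and 33.9%. All 24 DNA replication and mitosis genes were called higher in both populations, against 24.8% and 22.8% of all genes. Their median log2 fold changes were 5.50 in GC B and 3.90 in TFH cells. Of the 41 genes, 29 had values above 0 in GC B cells and 11 in TFH cells (against 50.1% and 50.0% of all genes). The part of cell division in these values was not tested.

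Some features of the genes were compared with these differences. In GENCODE M21 on mm10, 6 of the 41 genes (Ncl, Nop56, Nop58, Dkc1, Wdr43 and Gnl3) carry small nucleolar RNA genes within their bounds on the same strand. Their median log2 fold change was 0.29 in WT GC B cells, beside 0.26 for the other 35, and -0.63 in WT TFH cells, beside -0.13. In TFH cells 5 of these 6 had negative values and Ncl was the exception. Exon length bore little relation to the differences over the 41 genes, with Spearman's rho of -0.17 in GC B and -0.12 in TFH cells, as a description. Sequence shared with other genes limits some values. Of the 31-base words in the transcripts of Ddx18, 65.5% also occur in transcripts of other genes, and the shares were 34.8% for Pes1, 33.7% for Npm3, 29.4% for Npm1, 22.4% for Nop56 and 21.8% for Fbl, so counts of these genes are uncertain where reads were split among copies. Gar1 shared 0.404% and Polr1a 1.11%.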

How the data were processed

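RNA-sequencing of 45 samples was analysed from the table the authors deposited, which holds unscaled expected counts per gene, 8.83% of them with a fraction. Per the methods, RNA at a standard or a low input was captured by oligo-dT. Libraries were made with Illumina's stranded total RNA kit with Ribo-Zero Plus. The input of each sample was not used here, and its part in the differences above was not tested. Per the methods and the labels, reads were trimmed with Cutadapt 2.10, aligned to mm10 with STAR 2.5.3, marked for duplicates with Picard and counted with RSEM 1.3.0. The methods name GENCODE M30, while the symbols are those of M21, so coordinates come from M21. Whether strand was used in counting is not given in the sources used here.

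Groups came from the labels, and p-values measure the spread between these samples. The methods give 6 mice per genotype, which matches the groups of 6, but no label ties a sample to a mouse. No batch is named. Expected counts were rounded, filtered (filterByExpr), scaled by TMM and tested with edgeR 4.0.16 (R 4.3.3) in the groups compared. P-values were adjusted over all genes tested, and standard errors derived from the F statistic. DESeq2 1.42.0, limma 3.58.1 (voom), other scalings, no filter, a fit of all groups, a replicate block and leaving out each sample were alternatives. The fits were tested on simulated data. The 41 genes and all lists were chosen with earlier results of these data known. By rule, the WT population comparisons name the largest and smallest change in each role, and Ncl, Npm1, Fbl and Polr1b. They also name all genes not called and those against the majority. The rule asked for the same genes in S1PR4-/- mice, but values are given there for only some of them. The other comparisons name up to 6 genes past the adjusted p or the 3 smallest p-values. Gar1, Nop16, Rrs1, Rrp1b and Nip7 in GC B cells, Rrp9, Wdr43 and Gnl3 in TFH cells, Rrp1b between GC B and TFH cells and the window genes were added after their values were seen.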

Additional observations from a re-analysis of the deposited data

Results flagged for a closer look

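For 30 of the 41 genes, the difference between the germinal center population and its counterpart was not the same in WT B cells as in WT T cells, by edgeR's test of the difference itself. The B minus T values on the log2 scale, all positive, were Dkc1 (1.01), Gnl3 (0.90), Bysl (0.90), Npm1 (0.81), Nip7 (0.76), Nop16 (0.75), Rrs1 (0.75), Wdr43 (0.70), Rrp9 (0.69), Nop58 (0.68), Nhp2 (0.68), Gar1 (0.63), Mrto4 (0.57), Nop10 (0.56), Polr1a (0.56), Nop56 (0.48), Polr1e (0.48), Wdr12 (0.47), Rrp1b (0.47), Fbl (0.44), Ftsj3 (0.44), Polr1b (0.42), Tcof1 (0.40), Nop14 (0.33), Nolc1 (0.32), Mybbp1a (0.30), Polr1c (0.30), Rrn3 (0.29), Ddx18 (0.28) and Bop1 (0.26). Lineage and day of collection cannot be told apart in these values.

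Single samples far from the rest of their group were looked for in 336 groups of values, the CPM of each gene and the mean of the 41 genes in each of the 8 groups, with Dixon's test. There were 11, fewer than the 16.8 that chance gives at about 1 in 20 groups. In S1PR4-/- non-GC B cells, replicate 1 was high for Nop56 (394 CPM, the next sample at 291) and Nop16 (59.7 CPM), and replicate 3 was low for Mrto4 (16.8 CPM). In WT non-GC B cells, replicate 4 was high for the same pair of genes, Nop56 (376 CPM) and Nop16 (55.3 CPM). In WT GC B cells, replicate 3 was low for Pes1 (142 CPM) and high for Polr1b (62.6 CPM). In WT TFH cells, replicate 1 was high for Nop10 (75.9 CPM) and replicate 6 for Rrp1b (90.4 CPM). In WT non-TFH cells, replicate 2 was low for Polr1b (60.2 CPM), and in S1PR4-/- non-TFH cells replicate 5 was low for Ddx18 (82.2 CPM).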

How the results depend on the processing

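Counts of called genes in 13 comparisons were recomputed under 103 alternatives of the processing and 181 fits that each left out 1 sample. Every count held within 1.5 times of its value except where the 1.5-fold threshold was dropped. With the adjusted p alone, the count went in GC B cells from 12 to 27 (WT) and from 14 to 29 (S1PR4-/-), in TFH cells from 9 to 26 (WT) and from 7 to 24 (S1PR4-/-), from 0 to 1 between genotypes in TFH cells, from 8 to 34 between WT GC B and TFH cells and from 3 to 15 between their counterparts. Leaving out single samples gave 11 to 13, 13 to 16, 8 to 10 and 7 to 7 in the first 4, 7 to 9 and 3 to 4 in the last 2, and 27 to 31 for B minus T. Of 3759 values for named genes, 0 changed sign among those past the adjusted p, 109 lost it and 62 gained it.

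Scaling by total counts shifted the median of all genes by -0.12 in S1PR4-/- GC B cells and by -0.14 between WT non-GC B and non-TFH cells, and the median of the 41 genes from 0.39 to 0.28 and from -0.01 to -0.14. It moved from 0.26 to 0.16 in WT GC B cells.

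The samples share only replicate numbers. Same-numbered TFH and non-TFH samples had correlated deviations of 0.045 to 0.205 in WT (3 of 6 pairs each other's best match) and 0.0866 to 0.163 in S1PR4-/- mice (6 of 6, a hint from the data and not the design). With a replicate block the counts were 13 in WT and 14 in S1PR4-/- GC B cells, 9 in WT and 7 in S1PR4-/- TFH cells, and 29 for B minus T, and Ddx21 between genotypes in TFH cells had an adjusted p of 0.0746.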

Other observations

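Myc encodes the transcription factor with which ribosome biogenesis genes are classically linked. Its mean was lower in WT GC B than in WT non-GC B cells, opposite to the mean of the 41 genes. Between WT TFH and non-TFH cells, both means were lower in TFH cells. Myc was at 75.4 ± 12.4 CPM (SD, n = 6) in GC B cells, 97.0 ± 10.0 CPM (n = 5) in non-GC B cells, 75.2 ± 16.2 CPM (n = 6) in TFH cells and 165 ± 38.2 CPM (n = 6) in non-TFH cells. In S1PR4-/- mice it was at 69.7 ± 13.4 CPM (n = 6) in GC B, 80.2 ± 30.9 CPM (n = 4) in non-GC B, 78.0 ± 23.4 CPM (n = 6) in TFH and 217 ± 31.3 CPM (n = 6) in non-TFH cells. Of the 9 genes of its network that were tested, 2 rose and 4 fell in WT GC B cells (median -0.30), beside 34.3% and 32.9% of all genes. In WT TFH cells 2 rose and 3 fell (median 0.08), beside 34.8% and 33.9%. These are mRNA levels, and the part of MYC in the values of the 41 genes was not tested.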
